A study of Mus musculus with 26 samples.

Results

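The 37 genes described here encode the contractile and anchoring parts of the heart muscle sarcomere, and they were chosen by name from the 56941 genes listed in the count table. Each name matched 1 row. By the part of the sarcomere their products belong to, they were placed as 4 thick filament genes, 10 thin filament genes, 3 genes of titin and the M-band, 16 genes of the Z-disc and its partners, and 4 atrial, foetal or slow skeletal isoforms. Of the 37, 35 were abundant enough to be tested, among 15357 genes tested in all. The 2 that were not are Myl7 and Tnni1.

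RNA sequencing had been carried out on 26 left ventricle samples, taken here as 1 mouse each. Should any of them share a mouse, the p-values would measure the spread between samples only. All mice carried floxed alleles of Ppp2r2a, the gene for B55α, which is a regulatory subunit of protein phosphatase 2A. The knockout mice (cKO, aMHC-CreTg/0-Ppp2r2aL/L) also carried a Cre transgene driven by the αMHC promoter, which is active in heart muscle cells, so that other cells of the ventricle keep the gene. The control mice (Ctrl, aMHC-Cre0/0-Ppp2r2aL/L) had the floxed alleles and no Cre. Each sex had 6 Ctrl and 7 cKO mice, all aged 12 to 16 weeks and all infused with saline for 2 weeks from an osmotic minipump. The strain label was C57BL/6N, and the background was mixed, the floxed parents being C57BL6/N and the aMHC-Cre parents FVB. Cre mice lacking floxed alleles were not analysed here. Because the title speaks of sex-specific regulation, each gene was compared between genotypes within each sex and between the sexes within each genotype, and the genotype effects were compared between the sexes.

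A sarcomere is the repeating unit of the myofibril. Myosin thick filaments pull on actin thin filaments when calcium binds the troponin complex and tropomyosin moves on the actin filament. Titin spans from the Z-disc, where thin filaments of neighbouring sarcomeres are cross-linked by alpha-actinin, to the M-band, where thick filaments are held together by myomesins. Many proteins of the Z-disc also bind signalling proteins and connect the myofibril to desmin filaments. Some of the myosin light chains and troponins of the adult mouse ventricle are replaced by other isoforms in the atrium, the embryonic heart or slow skeletal muscle, and others are shared.

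The genes on which most results below turn were Myl3 (ENSMUSG00000059741), Tnni3 (ENSMUSG00000035458), Fhl2 (ENSMUSG00000008136) and Xirp2 (ENSMUSG00000027022). Their promoters are shown because the first 3 genes were lower together in cKO males and Xirp2 differed between the sexes. Each window runs 5′ to 3′ on the gene's strand, from 250 bases before the start of transcription to 50 after it, in the RefSeq table for GRCm38.p6. These lie at chr9:110763428-110763727 (plus strand) for Myl3, chr7:4522479-4522778 (minus strand) for Tnni3, and chr2:67445752-67446051 (plus strand) for Xirp2. Fhl2 has 2 starts in that table, at chr1:43163912-43164211 and chr1:43196712-43197011 (minus strand). Capitals mark matches, on either strand, to TATAAA, to CATTCC (a core bound by TEAD factors), to GATAA (bound by GATA factors), to the CArG box (bound by serum response factor) and to the MEF2 site.
Myl3: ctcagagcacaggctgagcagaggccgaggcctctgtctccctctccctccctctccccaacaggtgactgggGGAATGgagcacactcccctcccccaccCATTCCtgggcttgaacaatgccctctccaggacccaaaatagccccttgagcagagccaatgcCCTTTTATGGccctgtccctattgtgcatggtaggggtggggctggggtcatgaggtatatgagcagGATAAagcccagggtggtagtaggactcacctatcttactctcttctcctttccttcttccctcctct
Tnni3: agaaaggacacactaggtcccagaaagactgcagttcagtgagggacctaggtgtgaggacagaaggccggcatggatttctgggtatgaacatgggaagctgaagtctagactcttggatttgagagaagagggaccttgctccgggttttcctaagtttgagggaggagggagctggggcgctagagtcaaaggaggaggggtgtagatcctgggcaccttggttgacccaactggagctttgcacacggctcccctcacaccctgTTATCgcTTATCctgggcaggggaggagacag
Fhl2, first start: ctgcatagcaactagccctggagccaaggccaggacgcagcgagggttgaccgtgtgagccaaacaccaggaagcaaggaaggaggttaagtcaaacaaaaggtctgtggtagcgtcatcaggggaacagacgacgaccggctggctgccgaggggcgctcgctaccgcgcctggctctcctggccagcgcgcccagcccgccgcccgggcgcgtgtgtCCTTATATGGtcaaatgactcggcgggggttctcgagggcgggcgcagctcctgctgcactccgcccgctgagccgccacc
Fhl2, second start: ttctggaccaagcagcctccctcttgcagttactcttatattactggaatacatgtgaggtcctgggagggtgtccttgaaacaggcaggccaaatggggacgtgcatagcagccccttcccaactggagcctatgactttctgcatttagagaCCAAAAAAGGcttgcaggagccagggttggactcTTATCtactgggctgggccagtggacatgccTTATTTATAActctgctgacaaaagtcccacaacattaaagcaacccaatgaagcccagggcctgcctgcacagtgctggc
Xirp2: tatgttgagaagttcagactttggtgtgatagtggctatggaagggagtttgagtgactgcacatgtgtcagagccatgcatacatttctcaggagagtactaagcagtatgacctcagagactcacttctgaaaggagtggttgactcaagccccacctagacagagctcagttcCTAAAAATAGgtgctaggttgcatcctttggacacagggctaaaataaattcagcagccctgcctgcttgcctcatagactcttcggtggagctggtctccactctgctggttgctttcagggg

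The Myl3 window held a CArG box 85 to 76 bases before the start, a GATAA 18 to 14 bases before it and a CATTCC on each strand. Both Fhl2 windows held a CArG box, 31 to 22 bases before the start in the first and 96 to 87 bases in the second. In the second, a MEF2 site from 31 to 22 bases before the start overlapped a TATAAA on the other strand. Xirp2 held a MEF2 site 74 to 65 bases before its start and no other of these motifs, and the 2 matches in Tnni3 were GATAA on the other strand, after the start. The table held 45 windows for 32 of the 37 genes. A CArG box was present in 9 of these 45 (20.0%) and in 1.63% of all 32851 windows, and a MEF2 site in 15.6% against 3.19%. The shares were 26.7% against 14.7% for CATTCC, 33.3% against 25.4% for GATAA and 11.1% against 13.6% for TATAAA. These are matches of letters, described without a test, and no binding was measured.

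Total counts were between 14.4 and 30.9, in units of 1e6 counts per library. Ppp2r2a, the targeted gene, ran from 24.1 to 47.7 counts per 1e6 scaled counts (CPM) in Ctrl males and from 11.8 to 16.2 CPM in cKO males, and from 36.2 to 46.7 CPM in Ctrl females and 9.96 to 16.2 CPM in cKO females. It did not overlap between genotypes in either sex, but Ctrl males 3 and 6 lay well below the other Ctrl males, so male results are also given without them. The cardiomyocyte markers Myh6, Ryr2, Atp2a2, Pln, Slc8a1 and Tnnt2 summed to between 43692 and 60644 CPM. Markers of atrium were low apart from Nppa (86.1 to 855.0 CPM), which ventricles also express under load, and Kcnj3 (20.2 to 44.0 CPM). Sln was at 0 in 17 of 26 libraries and had at most 3 counts in any. The 9 markers of skeletal muscle summed to at most 3.34 CPM. By edgeR, 0 of the tested markers of cardiomyocytes, atrium, skeletal muscle, smooth muscle, fibroblasts, endothelium, macrophages, adipocytes or red cells were called between genotypes or sexes. In tissue, fewer cells of a type and less RNA per cell cannot be told apart.

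The 37 genes took 6.80% to 8.51% of a library's scaled counts. Within this, thin filament genes took 3.32% to 3.79% in Ctrl males and 2.92% to 3.47% in cKO males, and thick filament genes 1.88% to 2.02% and 1.67% to 1.88%. Levels can be compared between genes only per length, so CPM were divided by the length of the transcript with the longest coding sequence. By this scale Myl2, the regulatory light chain of ventricular myosin, stood highest, at a mean of 11334 CPM per kilobase. Cardiac actin Actc1 (7557 CPM per kilobase) and cardiac troponin T Tnnt2 (6832 CPM per kilobase) followed, then Myl3 (5684 CPM per kilobase) and Tnni3 (5002 CPM per kilobase). Myl2 was above Actc1 in 26 of 26 mice, whereas Actc1 was above Tnnt2 in 23. The order was loose in the middle, as with Fhl2 and Myoz2 or Actn2 and Des, each pair in the stated order in 16 of 26 mice. The length used for a gene was the same in every mouse, so these counts of mice do not cover an error in length. Reads of actins and tropomyosins, which have near-identical paralogs, could have been split or lost in the authors' counting, so Actc1, Tpm1 and Tpm2 are uncertain.

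Titin, Ttn, the largest protein of the sarcomere, stood at 35.4 CPM per kilobase and ranked 29th by this scale, though by counts alone it was among the abundant genes, at 3239 to 4512 CPM. Nebulette Nebl (22.8 CPM per kilobase) and Tpm2 (22.2 CPM per kilobase) could not be ordered, with Nebl higher in 14 of 26 mice. Nebulin Neb, which sets thin filament length in skeletal muscle, was at 0.681 CPM per kilobase. The 4 atrial, foetal or slow skeletal isoforms were among the 6 lowest genes together with Pdlim3 and Neb.

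**Figure D1:**
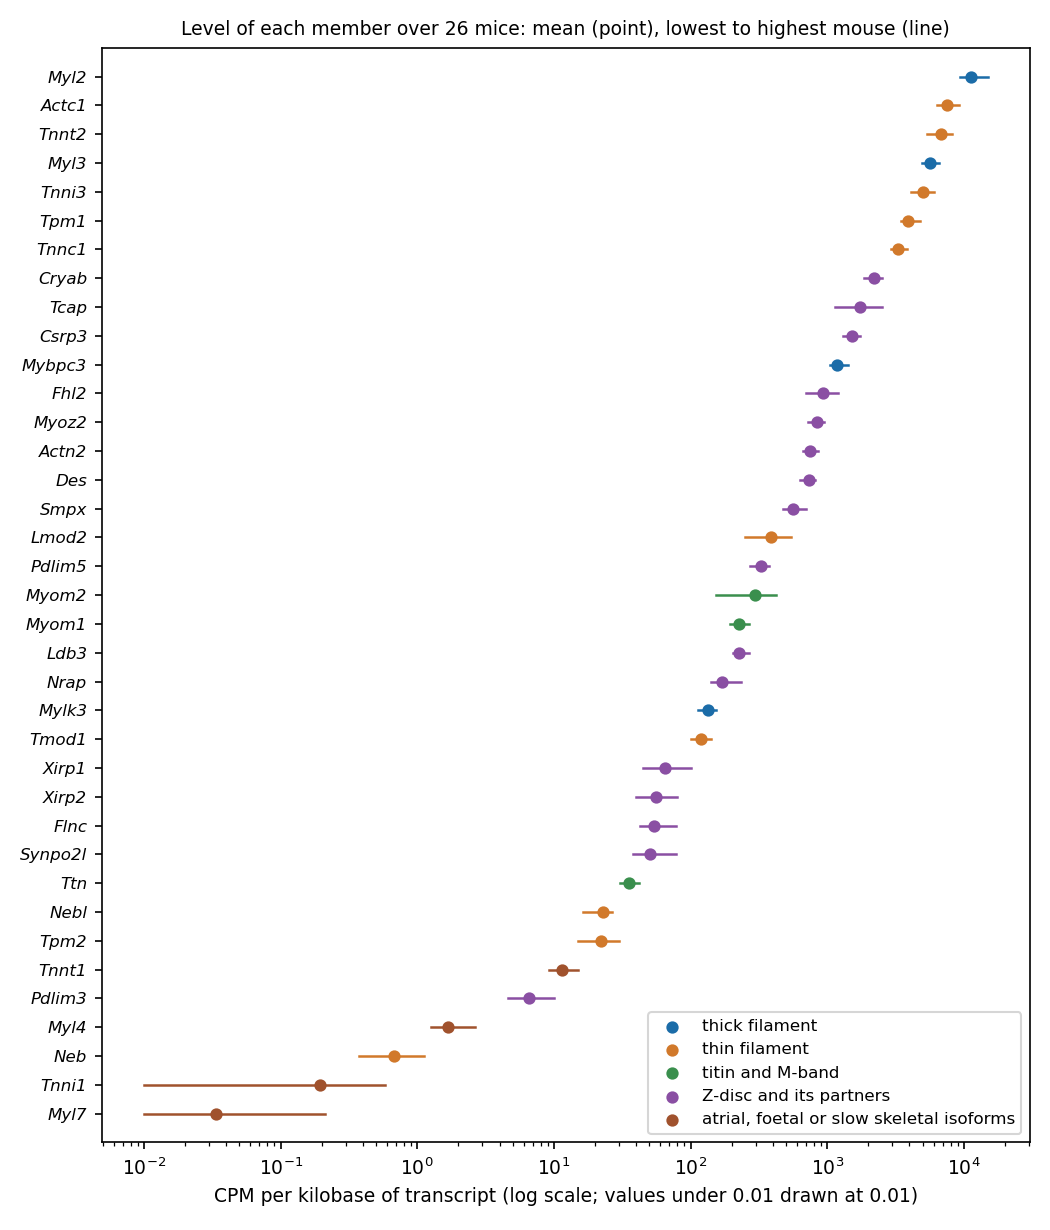
Level of each of the 37 genes in CPM per kilobase of transcript (x axis, log scale), as the mean over 26 mice (point) and the lowest to highest mouse (line), coloured by part of the sarcomere. Myl2 stood highest at 11334, Ttn at 35.4, and Myl7 lowest at 0.0338.

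In males, 3 of the 35 genes tested were lower in cKO than in Ctrl and 0 were higher at an adjusted p under 0.05, which is the meaning of called throughout. They were Fhl2, Tnni3 and Myl3, from the Z-disc, the thin filament and the thick filament. The DESeq2 Wald test called these 3 and also Synpo2l, which was higher in cKO (0.39, SE 0.12, adjusted p = 0.0449). Of all 15357 genes, edgeR called 0.443% in this comparison and 0.26% lower. The share of all genes called by DESeq2 is not given here. At an unadjusted p under 0.05 there were 7 of 35 (20.0%), against 13.2% of all genes. Of the 35, 19 had an estimate below 0, and their median log2 fold change was -0.02 against 0.001 for all genes.

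Fhl2 encodes a LIM-domain protein that binds titin and signalling proteins at the Z-disc. It ran from 1271 to 1702 CPM (median 1507) in Ctrl males and from 991 to 1422 CPM (median 1101) in cKO males. All 7 cKO males lay below the mean of the Ctrl males, but the groups overlapped, because Ctrl male 6 (1271 CPM) lay below cKO males 3 (1422 CPM) and 5 (1279 CPM). The log2 fold change was -0.41 (SE 0.08, adjusted p = 0.0272 by edgeR), or -24.8% with a 95% interval of -32.6% to -15.9%.

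Tnni3 encodes cardiac troponin I, the inhibitory subunit of troponin, whose phosphorylation tunes the response to calcium. Its level was 4299 to 4931 CPM (median 4708) in Ctrl males and 3740 to 4156 CPM (median 3988) in cKO males. These ranges did not overlap. The log2 fold change was -0.24 (SE 0.05, adjusted p = 0.0316 by edgeR), or -15.2% (95% interval -20.8% to -9.11%).

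Myl3, the essential light chain of ventricular myosin, was at 5509 to 5925 CPM (median 5741) in Ctrl males and 4719 to 5237 CPM (median 4980) in cKO males. Every cKO male lay below every Ctrl male. The log2 fold change was -0.20 (SE 0.05, adjusted p = 0.0374 by edgeR), or -13.2% (95% interval -18.4% to -7.71%). Its partner light chain Myl2 was at 7896 to 8669 CPM (median 8361) in Ctrl males and 6812 to 7561 CPM (median 7135) in cKO males, again with no overlap. Its log2 fold change of -0.21 did not pass (SE 0.06, adjusted p = 0.12 by edgeR). It was called with the male groups fitted alone (-0.21, adjusted p = 0.0419 by edgeR) and without the females numbered 2 (adjusted p = 0.0296 by edgeR). Those females had the highest Myl2 of their groups (10871 CPM in Ctrl and 10515 CPM in cKO). The non-overlapping genes in males were Myl2, Myl3 and Tnni3, that is 3 of 35, against 1.28% of all genes.

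**Figure D2:**
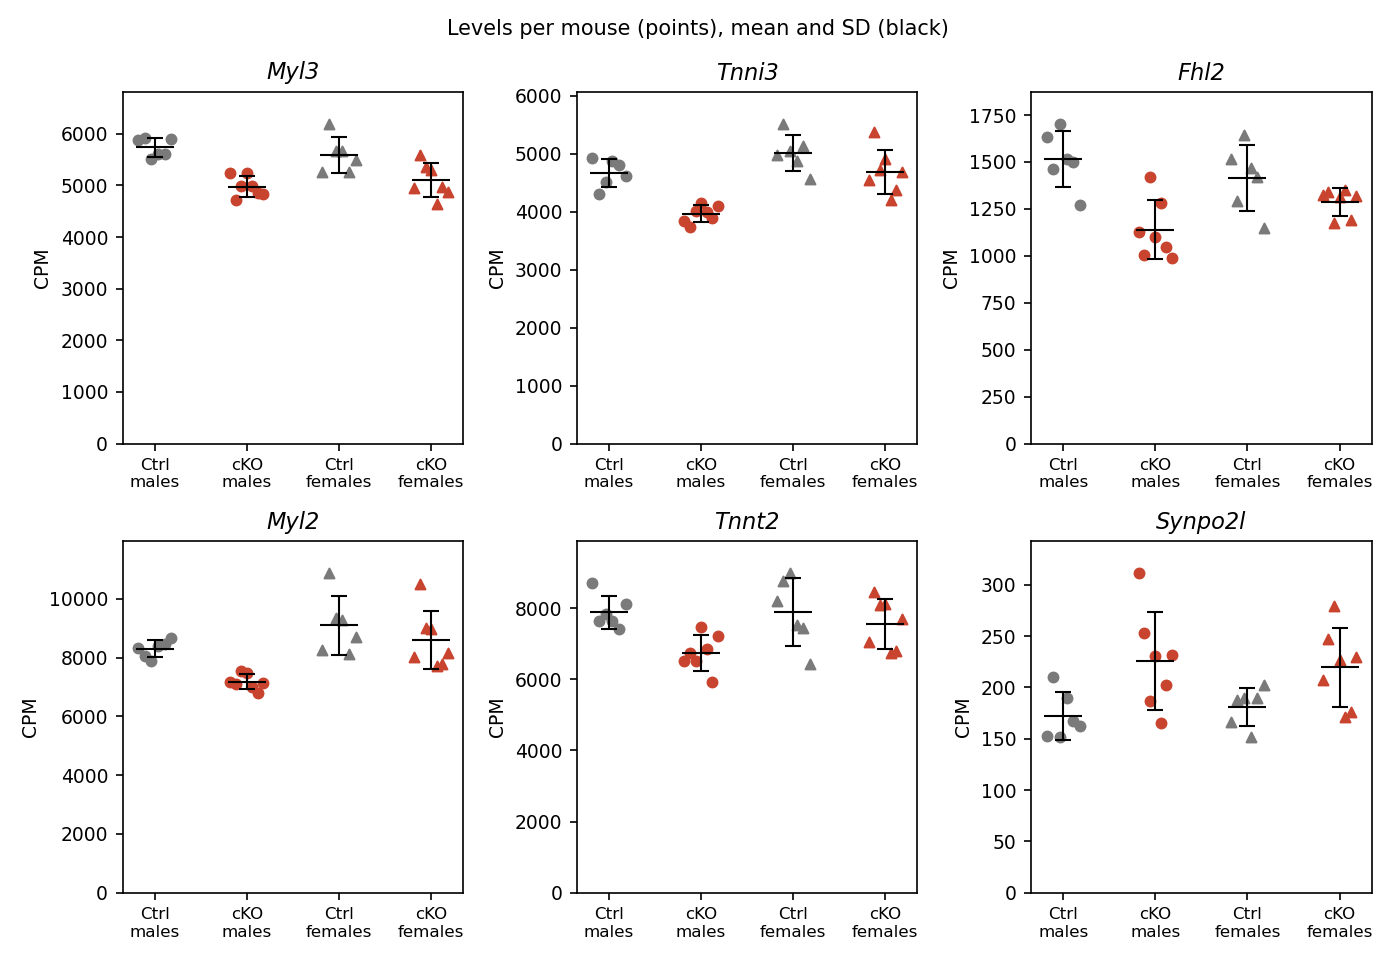
CPM of Myl3, Tnni3, Fhl2, Myl2, Tnnt2 and Synpo2l (y axes, from 0) in each mouse (points) of the 4 groups, with mean and SD in black. The 7 cKO males lay below all Ctrl males for Myl3, Tnni3 and Myl2, and the female groups overlapped for all 6 genes.

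The calls in males lay near the threshold, and they moved with the mice left out and with the processing. Shares of all genes called in these refits are not given here. Without Ctrl males 3 and 6, 0 were called, although the estimates were as large (Fhl2 -0.42, Tnni3 -0.26, Myl3 -0.21) with edgeR adjusted p of 0.0545 for Fhl2 and Tnni3 and 0.0681 for Myl3. Leaving out Ctrl male 5, cKO male 2 or cKO male 6 also left 0 of the 35 called. The Fhl2 call was lost in 4 of 26 omissions (Ctrl males 3 and 5, cKO males 2 and 6), and that of Tnni3 in 7 (Ctrl males 1, 4 and 5, cKO males 1, 2, 5 and 6). That of Myl3 was lost in 12, being all omissions of a male other than cKO male 4. Over these omissions the log2 fold change stayed between -0.47 and -0.38 for Fhl2, -0.26 and -0.22 for Tnni3, and -0.22 and -0.19 for Myl3. The sum of the 6 cardiomyocyte markers, which includes Tnnt2, ran from 49992 to 57443 CPM in Ctrl males and from 43692 to 54121 CPM in cKO males. Of these 6 markers, 1 had an estimate above 0 and 0 were called, while 5 of 5 fibroblast markers were above 0 with 0 called. The male fibroblast estimates ran from 0.009 for Pdgfra to 0.515 for Col1a1 (adjusted p = 0.0553 by edgeR). In females 0 of the 6 cardiomyocyte markers and 5 of the 5 fibroblast markers were above 0, again with 0 called. The part of either cell type in the male result was not tested.

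The remaining genes in males are given by part of the sarcomere. Of the 4 thick filament genes, 3 had estimates below 0, with a median of -0.11. Myosin-binding protein C, Mybpc3, was at -0.01, and the cardiac myosin light chain kinase Mylk3 was at 0.12 (adjusted p = 0.404 by edgeR). Of the 10 thin filament genes 7 were below 0, with a median of -0.11, and the 3 above 0 were Neb, Nebl and the actin filament leiomodin Lmod2. Tnnt2 was at 7418 to 8714 CPM in Ctrl males and 5932 to 7476 CPM in cKO males, a log2 fold change of -0.23 that did not pass (SE 0.07, adjusted p = 0.12 by edgeR). Calcium-binding troponin C, Tnnc1, was at -0.05. Among the 16 Z-disc genes 8 were below 0 and 8 above, with a median of -0.005. The extremes were Fhl2 and the actin-binding protein gene Synpo2l, at 152 to 210 CPM in Ctrl males and 166 to 311 CPM in cKO males, with a log2 fold change of 0.39 (SE 0.13, adjusted p = 0.138 by edgeR). Alpha-actinin Actn2 stood at -0.10, desmin Des at -0.03 and the small heat shock protein gene Cryab at -0.17, all uncalled.

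In females 0 of the 35 genes were called by edgeR and 0 by the DESeq2 Wald test, and 2 had an unadjusted edgeR p under 0.05 (5.71%, against 5.15% of all genes). Of all genes, 0.0326% were called. The 35 had estimates below 0 in 24 cases, with a median of -0.04 against 0.003 for all genes. Of the 10 thin filament genes 8 were below 0, of the 4 thick filament genes 3 and of the 16 Z-disc genes 10. The Z-disc estimates ran from -0.16 for the titin cap gene Tcap to 0.28 for Synpo2l. No gene of the set was free of overlap between the female groups, against 0.169% of all genes.

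Myl3 had the smallest p in females. It was at 5253 to 6190 CPM (median 5582) in Ctrl females and 4633 to 5585 CPM (median 4977) in cKO females, with 7 of 7 cKO females below the Ctrl mean but overlapping ranges. The log2 fold change was -0.13 (SE 0.05, adjusted p = 0.825 by edgeR). Synpo2l was at 152 to 202 CPM in Ctrl females and 171 to 279 CPM in cKO females, a log2 fold change of 0.28 (SE 0.13, adjusted p = 0.941 by edgeR). Tnni3 was at 4556 to 5512 CPM in Ctrl females and 4192 to 5365 CPM in cKO females, a log2 fold change of -0.10 (SE 0.05, adjusted p = 0.948 by edgeR). Fhl2 was at 1149 to 1644 CPM and 1174 to 1349 CPM, a log2 fold change of -0.14 (SE 0.08, adjusted p = 0.958 by edgeR).

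**Figure D3:**
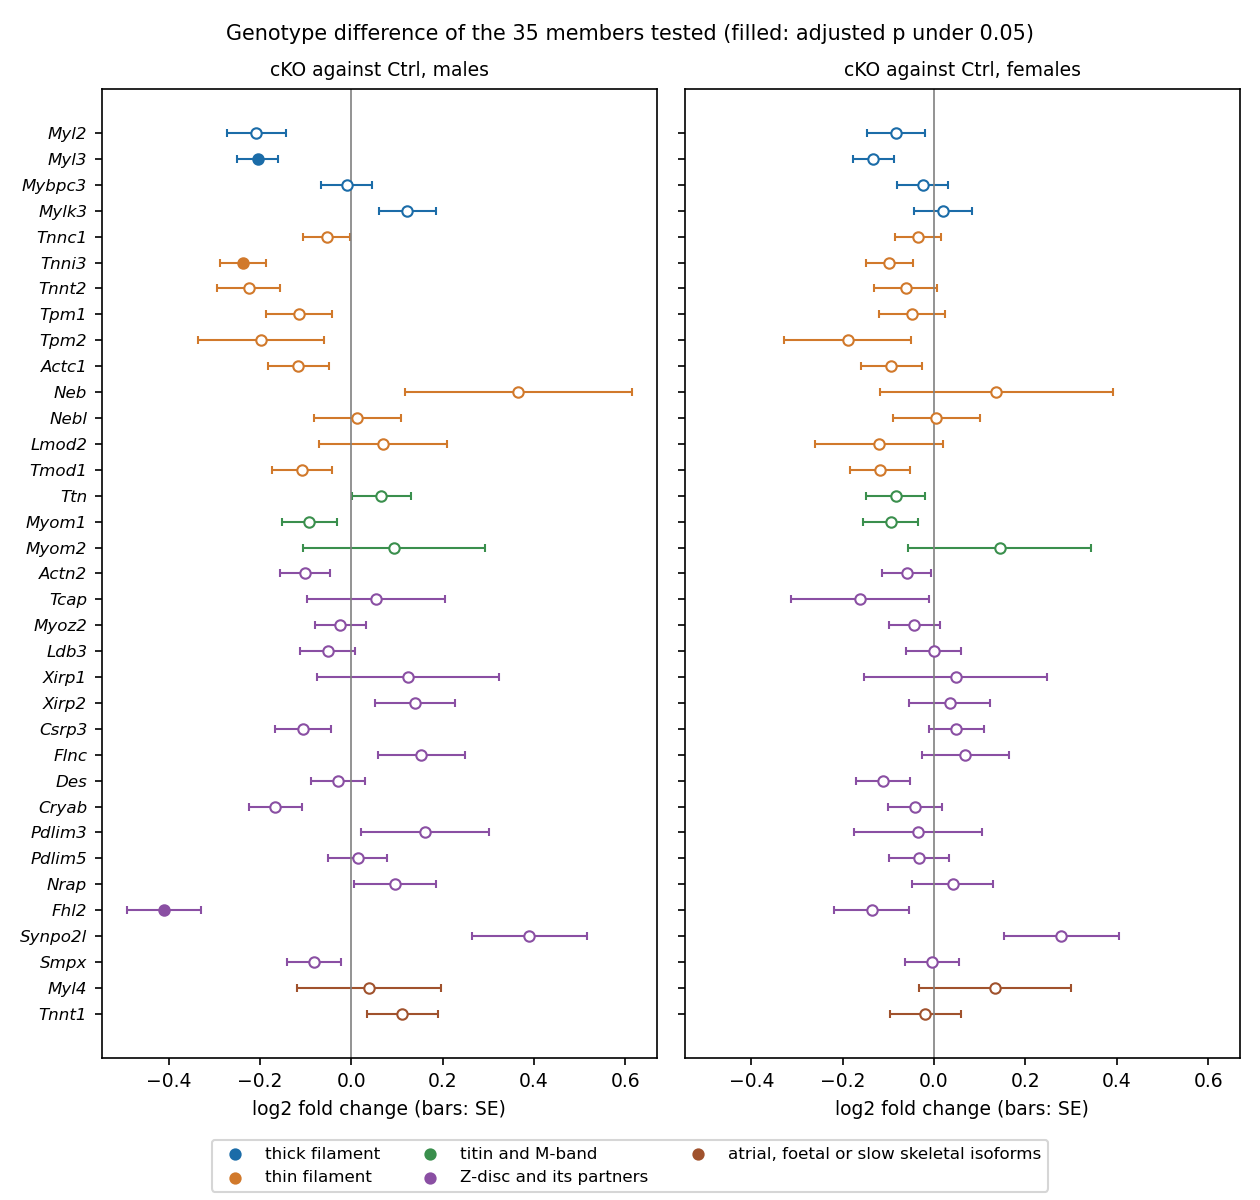
Log2 fold change of cKO against Ctrl (x axes, with SE) for the 35 genes tested in males (left) and females (right), coloured by part of the sarcomere and filled where called. Fhl2 (-0.41), Tnni3 (-0.24) and Myl3 (-0.20) are filled in males, and no gene is filled in females.

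A call in males and none in females does not show that the sexes differ, and the difference itself was tested. Of the 35 genes 0 passed, by edgeR and by DESeq2, as 0% of all genes did, and 1 gene had an unadjusted edgeR p under 0.05. That gene was Fhl2, whose female effect exceeded its male effect by 0.27 on the log2 scale (SE 0.12, unadjusted p = 0.0246, adjusted p = 0.999 by edgeR). For Tnni3 the difference was 0.14 (SE 0.07, adjusted p = 0.999 by edgeR) and for Myl3 0.07 (SE 0.06, adjusted p = 0.999 by edgeR).

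Averaged over the sexes, the genotype effect was called for the same 3 genes, all lower in cKO, while 1.33% of all genes were called and 0.866% called lower. The mean log2 fold change was -0.27 for Fhl2 (SE 0.06, adjusted p = 0.0162 by edgeR), -0.17 for Tnni3 (SE 0.04, adjusted p = 0.0168 by edgeR) and -0.17 for Myl3 (SE 0.03, adjusted p = 0.00965 by edgeR). These 3 calls held in all 26 omissions of a mouse, without Ctrl males 3 and 6, and with the offset for length and GC content described below. At an unadjusted p under 0.05 there were 11 of 35 (31.4%), against 14.1% of all genes. Synpo2l came nearest of the others, at 0.33 (SE 0.09, adjusted p = 0.0542 by edgeR). It was higher in cKO and was called in 6 of 26 omissions of a mouse (lowest adjusted p = 0.0289 by edgeR). Estimates below 0 were had by 23 of the 35, with a median of -0.03 against 0.004.

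The large structural genes were not called in either sex. Ttn was at 3315 to 4512 CPM (median 3809) in Ctrl males, 3701 to 4326 CPM (median 3890) in cKO males, 3388 to 4193 CPM (median 3784) in Ctrl females and 3239 to 3967 CPM (median 3522) in cKO females. All 4 ranges overlapped. Its log2 fold change was 0.07 in males (SE 0.07, adjusted p = 0.732 by edgeR) and -0.08 in females (SE 0.07, adjusted p = 0.975 by edgeR). The male 95% interval ran from -4.22% to 14.4% and the female from -13.7% to 3.06%. The male estimate was -0.09 with the offset for length and GC content described below. Of the M-band genes, Myom1 stood at -0.09 in males and -0.10 in females, uncalled in each. Myom2 varied widely between mice, from 784 to 2135 CPM, with differences of 0.09 and 0.14 that did not pass.

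Of the isoforms of atrium, embryonic heart and slow muscle, Myl7 and Tnni1 were close to the limit of detection, while Myl4 and Tnnt1 were counted in every library. Myl7, the atrial regulatory light chain, had 0 counts in 20 of 26 libraries and at most 3 counts in any, 11 in all: 1 in Ctrl males, 6 in cKO males, 0 in Ctrl females and 4 in cKO females. The limit that a count of 0 allows, 3 counts, was 0.0928 to 0.21 CPM depending on the library, which covers counting error only. Tnni1, the slow skeletal and foetal troponin I, had 0 to 7 counts per library. Myl4, the atrial and foetal essential light chain, was at 1.11 to 2.31 CPM, with a log2 fold change of 0.04 in males and 0.13 in females (SE 0.16 and 0.17, adjusted p = 0.948 and 0.983 by edgeR). Tnnt1, slow skeletal troponin T, was at 9.80 to 16.0 CPM.

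The ratio of 2 genes in 1 library does not depend on how libraries are scaled, so the minor isoform was set against the main isoform of the same protein, each in CPM per kilobase. Both genes were read in whole tissue, and which cells their RNA came from was not measured. Of 5 such pairs, Tnni1 with Tnni3 and Myl7 with Myl2 could not be tested because the minor gene was at 0 in some libraries. The other 3 pairs gave 12 tests, and 1 passed. In Ctrl males Tnnt1 was 0.132% to 0.151% of Tnnt2, and in cKO males 0.153% to 0.196%, with no overlap. The log2 ratio was 0.34 higher in cKO males (-9.13 ± 0.14, SD, n = 7, against -9.47 ± 0.07, SD, n = 6, exact permutation p = 0.00117, adjusted 0.014). Tnnt1 stood at 0.11 and Tnnt2 at -0.23 on the log2 scale, and neither passed alone. In Ctrl and cKO females the ratio was 0.142% to 0.220% and 0.159% to 0.213% (log2 difference 0.05, exact permutation p = 0.643, adjusted 0.832). Whether the sexes differ in this ratio effect was not tested. Between the sexes in Ctrl mice the log2 ratio was 0.31 higher in females, which did not pass (exact permutation p = 0.0238, adjusted 0.143). It passed without Ctrl female 1 (0.36) or Ctrl female 3 (0.37), each with an exact permutation p of 0.00649, adjusted 0.0389. With Ctrl males 3 and 6 left out, this sex difference was 0.28 and did not pass (exact permutation p = 0.0857, adjusted 0.33). Without Ctrl males 3 and 6 the male groups still did not overlap (0.137% to 0.151% in the 4 Ctrl males left) and the log2 difference was 0.31, with an exact permutation p of 0.00606 over the 330 arrangements of the 11 mice, adjusted 0.0727, so that 0 of the 12 passed with this smaller number of mice.

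Myl4 was 0.0220% to 0.0341% of Myl3 in Ctrl males and 0.0274% to 0.0399% in cKO males (log2 difference 0.26, exact permutation p = 0.0781, adjusted 0.312). In females it was 0.0230% to 0.0280% and 0.0226% to 0.0441% (0.24, exact permutation p = 0.11, adjusted 0.33). Tpm2 was 0.355% to 0.874% of Tpm1 over all mice, and none of its 4 comparisons passed (smallest exact permutation p = 0.5, adjusted 0.832).

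Between the sexes, 0 of the 35 genes were called in Ctrl mice, where 0.638% of all genes were called by edgeR, and 5 had an unadjusted p under 0.05 (14.3%, against 12.1% of all genes). The DESeq2 Wald test called 2, Tnnt1 (adjusted p = 0.0208) and Xirp2 (adjusted p = 0.0245), but the share of all genes it called is not given here. In cKO mice 4 were called by edgeR, against 2.7% of all genes. Tnni3, Smpx and Myl2 were higher in females and Xirp2 was lower, where 1.43% of all genes were called higher and 1.27% lower. At an unadjusted p under 0.05 there were 10 of 35 (28.6%, against 17.3%). The comparisons in cKO mice use the same cKO males as the genotype comparison, so the low cKO male values of Tnni3 and Myl2 enter each.

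Xirp2 encodes a large actin-binding protein of the intercalated disc and Z-disc. It was at 649 to 956 CPM (median 797) in cKO males and 521.8 to 653.5 CPM (median 581) in cKO females. All 7 females lay below the male mean, and the groups overlapped, in that cKO female 3 (654 CPM) lay above cKO males 3 and 5 (649 and 652 CPM). The log2 difference, female minus male, was -0.46 (SE 0.09, adjusted p = 0.00387 by edgeR), or -27.1% (95% interval -35.0% to -18.2%). In Ctrl mice Xirp2 was at 624.8 to 844.7 CPM (median 711) in males and 476 to 616 CPM (median 576) in females. These ranges did not overlap, and the log2 difference was -0.35 (SE 0.09, adjusted p = 0.072 by edgeR). Xirp2 was the 1 gene of the set without overlap in Ctrl mice, against 1.02% of all genes.

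Smpx, a small X-linked gene whose product sits at the sarcomere and costamere, was at 239 to 282 CPM (median 253) in cKO males and 268 to 354 CPM (median 298) in cKO females. Every cKO female lay above the male mean, with cKO male 2 (282 CPM) above cKO female 1 (268 CPM). The log2 difference was 0.25 (SE 0.06, adjusted p = 0.0202 by edgeR). In Ctrl mice it was at 243 to 282 CPM in males and 260 to 330 CPM in females, a log2 difference of 0.17 (SE 0.06, adjusted p = 0.222 by edgeR).

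Tnni3 and Myl2 were without overlap between the cKO sexes, which was so for 1.09% of all genes. Tnni3 was at 3740 to 4156 CPM in cKO males and 4192 to 5365 CPM in cKO females, a log2 difference of 0.24 (SE 0.05, adjusted p = 0.00821 by edgeR). Myl2 was at 6812 to 7561 CPM in cKO males and 7709 to 10515 CPM in cKO females, a log2 difference of 0.26 (SE 0.06, adjusted p = 0.0231 by edgeR). The Myl2 call was lost without cKO male 6, cKO female 2 or cKO female 4 (highest adjusted p = 0.0566 by edgeR), while those of Xirp2, Tnni3 and Smpx held in all 26 omissions. Without both females numbered 2 the Myl2 difference was 0.20 (SE 0.04, adjusted p = 0.0185 by edgeR). In Ctrl mice the differences were 0.10 for Tnni3 (SE 0.05, adjusted p = 0.448 by edgeR) and 0.13 for Myl2 (SE 0.07, adjusted p = 0.432 by edgeR).

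Tnnt1 had the smallest p in Ctrl mice, at 9.80 to 11.7 CPM (median 10.9) in males and 11.1 to 16.0 CPM (median 13.2) in females. The log2 difference was 0.32 (SE 0.08, adjusted p = 0.0638 by edgeR), with 6 of 6 females above the male mean. In cKO mice it was 0.18 (SE 0.08, adjusted p = 0.189 by edgeR). Leaving out Ctrl female 1 or 6 made Tnnt1 a call in Ctrl mice, and leaving out Ctrl male 5 did so for Xirp2. Without Ctrl males 3 and 6 neither was called, with Tnnt1 at 0.29 and Xirp2 at -0.36 (adjusted p = 0.256 and 0.172 by edgeR). With the compared groups fitted alone the adjusted p were 0.221 for Tnnt1 and 0.0812 for Xirp2 by edgeR. Ttn differed between cKO males and females by -0.16 (SE 0.06, adjusted p = 0.177 by edgeR), with 7 of 7 females below the male mean, and between Ctrl males and females by -0.01 (SE 0.07, adjusted p = 0.983 by edgeR), a sign that several settings reversed. With the offset for length and GC content described below, this last difference was -0.21 (SE 0.08, adjusted p = 0.233 by edgeR).

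**Figure D4:**
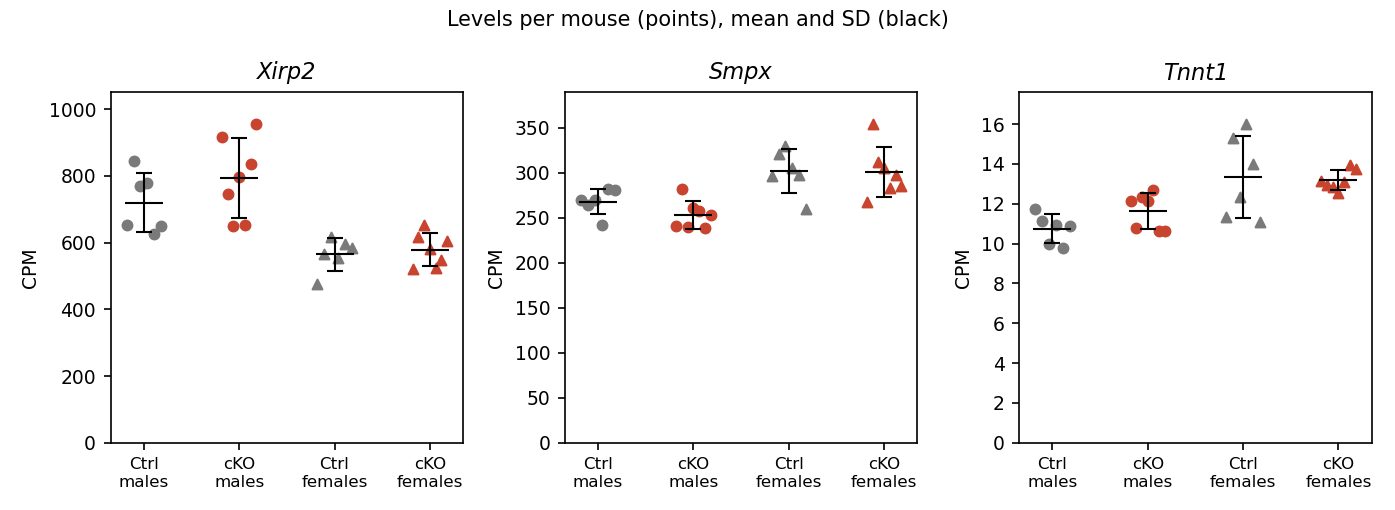
CPM of Xirp2, Smpx and Tnnt1 (y axes, from 0) in each mouse (points) of the 4 groups, with mean and SD in black. Ctrl females (476 to 616) lay below all Ctrl males (624.8 to 844.7) for Xirp2, and for Tnnt1 the cKO females spanned 12.6 to 13.9.

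These differences varied with transcript length. In males, 13 of the 19 genes with transcripts under 2000 bases had estimates below 0 (median -0.11), against 6 of the 16 longer ones (median 0.08). Spearman's rho between the log2 fold change and length was 0.58 over the 35 genes and 0.25 over the 15092 tested genes with a length. In cKO mice, 3 of the 19 short genes and 11 of the 16 long genes were lower in females, with a rho of -0.71 against -0.17 over all genes. The female genotype comparison gave a rho of 0.33 (0.10 over all genes), with 17 of the 19 short genes and 7 of the 16 long genes below 0. The sex comparison in Ctrl mice gave -0.40 (-0.04), with 8 of the 19 short genes and 11 of the 16 long genes below 0. Genes are not independent replicates and those in 1 comparison share libraries, so these are descriptions.

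The trend was present in the libraries as a whole. The slope of log2 level on length over all genes was 0.014 to 0.0396 per doubling of length in cKO males and -0.031 to 0.0228 in Ctrl males, and the means differed (exact permutation p = 0.00291, adjusted over 4 comparisons 0.00583). The slopes ran from -0.0602 to 0.0182 in cKO females, below those of cKO males on average (exact permutation p = 0.00233, adjusted 0.00583). They ran from -0.0444 to 0.0233 in Ctrl females (exact permutation p = 0.474 against cKO females and 0.645 against Ctrl males, adjusted 0.632 and 0.645). After an offset for length and GC content in each library, rho over the 35 genes was 0.26 in males and -0.60 between the cKO sexes. Over all genes it was then 0.01 and -0.006. In females rho over the 35 genes was 0.22 after the offset, and between the Ctrl sexes -0.40 (-0.0004 and -0.008 over all genes). With this offset, Tnni3 stayed called in males, while Fhl2 (-0.38, adjusted p = 0.0554 by edgeR) and Myl3 (-0.18, adjusted p = 0.0794 by edgeR) did not. Between the cKO sexes Xirp2, Tnni3 and Myl2 stayed called and Smpx did not (0.18, adjusted p = 0.0719 by edgeR). What part length had in each difference was not tested beyond this.

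**Figure D5:**
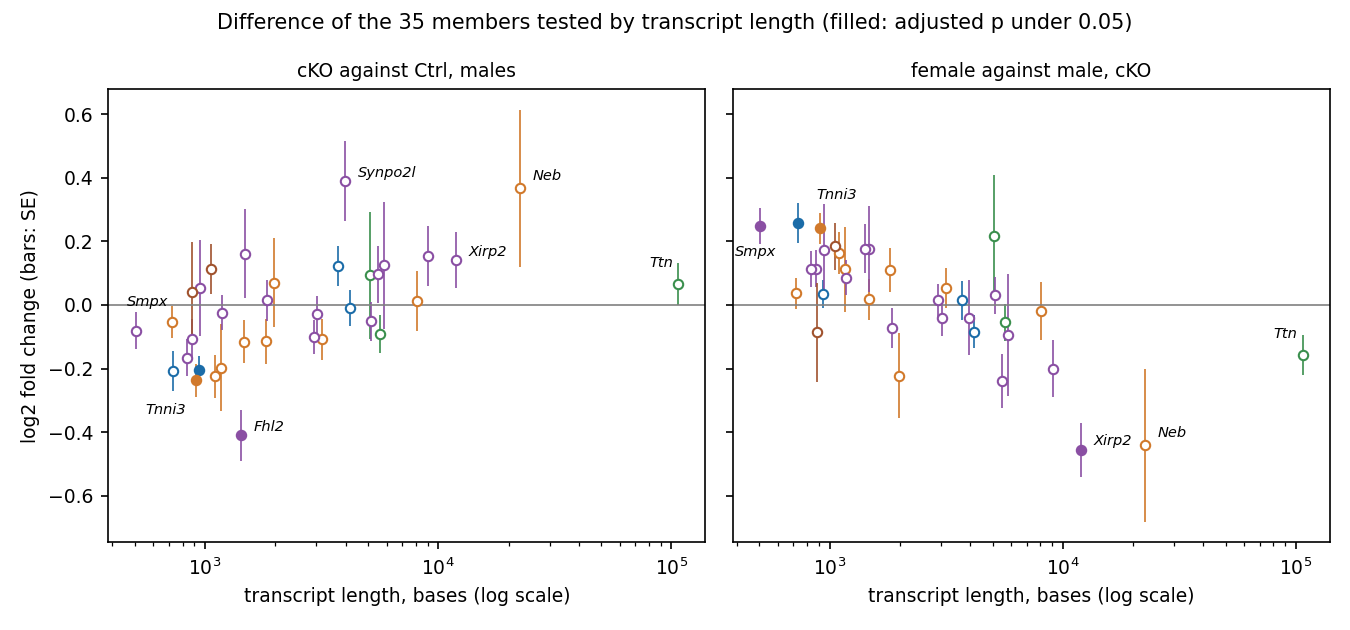
Log2 fold change (y axis, with SE) of the 35 genes against transcript length in bases (x axis, log scale), for cKO against Ctrl in males (left) and for female against male in cKO mice (right), filled where called. Short transcripts lay mostly below 0 on the left (13 of 19) and above 0 on the right, where 3 of 19 lay below.

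Other genes of the contractile apparatus, 50 by name and 46 tested, were read out for comparison. In males and in females 0 were called by edgeR, against 0.443% and 0.0326% of all genes. At an unadjusted edgeR p under 0.05 there were 5 and 1 (10.9% and 2.17%, against 13.2% and 5.15% of all genes). The DESeq2 Wald test, with an adjusted p for 42 of the 46 in males and for 46 in females, called 1 in males (Smyd1, lower in cKO) and 0 in females. Averaged over the sexes, 2 of the 46 were called by edgeR, against 1.33% of all genes, and both were lower in cKO. They were Fhl1 (-0.27, SE 0.06, adjusted p = 0.0181 by edgeR), a LIM-domain relative of Fhl2, and Smyd1 (-0.21, SE 0.05, adjusted p = 0.0377 by edgeR), a muscle methyltransferase needed for thick filament assembly. DESeq2 called these and also Ankrd1, a titin-binding ankyrin repeat protein, which was higher in cKO (0.46, adjusted p = 0.0362 by DESeq2 and 0.0982 by edgeR). In Ctrl mice edgeR called 1 of the 46, against 0.638% of all genes. It was Ankrd23, a relative of Ankrd1, lower in females (-0.53, SE 0.13, adjusted p = 0.0444 by edgeR). There DESeq2 also called the kinase gene Mylk4, higher in females (0.66, adjusted p = 0.005), and the Z-disc protein myotilin, Myot, lower (-0.54, adjusted p = 0.0286). In cKO mice edgeR called 2 of the 46, against 2.7% of all genes. Ankrd23 (-0.61, SE 0.12, adjusted p = 0.00614 by edgeR) and Myot (-0.58, SE 0.14, adjusted p = 0.0285 by edgeR) were lower in females. DESeq2 added the muscle calpain gene Capn3 (-0.77, adjusted p = 0.0417) and Cmya5 (-0.25, adjusted p = 0.0289), both lower. Shares of all genes called by DESeq2 are not given here.

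The genes of the set varied less between mice of a group than most genes. The SD of log2 CPM within groups had a median of 0.12 over the 35 and 0.19 over all genes tested, and 26 of the 35 lay at or below the latter. It was lowest for Myl3 (0.07) and highest for Neb (0.46). Over 26 values taken relative to group means, Myl2 and Myl3 had the highest Pearson correlation of 595 pairs (0.85) and Tnnt2 and Tpm2 the lowest (-0.62), with a median of 0.23. Among the genes most like Ttn over these values were Fam210a (0.90), Bves (0.89), Prkaa2 (0.88) and Usp24 (0.88), with transcripts of 4368 to 10594 bases. Within the set they were Actc1 (0.74), Myom1 (0.72) and Tmod1 (0.72), and Myl2 was the least like it (-0.40). The points share library depth and the length slope of each library.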

How the data were processed

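Left ventricle RNA had been made into stranded poly-A libraries from 500 ng of total RNA, with RNA integrity numbers of at least 7.7, per the labels. The authors deposited raw whole-number counts per gene for 26 libraries in 1 table. The submitters' processing notes name FastQC 0.74, cutadapt 4.6, STAR 2.7.11a, HTSeq and GRCm39. The annotation release and strand setting are not given in the sources used here. Groups follow the genotype and the sex given in the labels. No pair of libraries within a group agreed within sampling noise (chi-square per degree of freedom 7.79 to 36.4 over 72 pairs), so all 26 were kept.

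The count model was edgeR 4.0.16 (R 4.3.3): filterByExpr with a minimum count of 10, TMM scaling, 1 mean per group over all 26 libraries, robust quasi-likelihood F tests, and Benjamini-Hochberg adjustment over 15357 genes, with an adjusted p under 0.05 called. Totals of 14.4 to 30.9 (1e6 counts) put the floor of 3 counts at 0.0928 to 0.21 CPM. Standard errors were derived from each F statistic. CPM used TMM-scaled totals. Transcript length and GC content came from GENCODE M21 (GRCm38) by gene ID for 15092 genes (98.3%). Promoters came from RefSeq (GRCm38.p6). Isoform ratios, per length, and length slopes were compared by exact two-sided permutation over mice. Of 20 ratio tests planned, 12 could be made. The methods were tested on simulated data.

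Any of the 37 genes could be named. Full statistics were given for those called in any comparison, the 3 of smallest p in each comparison of 2 groups, the isoform pairs and Ttn. Of 50 other contractile genes, those called by edgeR or DESeq2 were named. A gene among those most like Ttn is not reported here. Members and lists were chosen with earlier results of these data known. The alternatives were DESeq2 size factors, the DESeq2 1.42.0 Wald test, limma 3.58.1 voom with quality weights, no filter, a floor of 5 CPM on the mean, a fit on the compared groups alone, the replicate number as a block, an offset for length and GC content (splines with 4 degrees of freedom), the block with that offset, 0.5 CPM added to isoform ratios, and each mouse left out. The omission of Ctrl males 3 and 6, that of the females numbered 2, and the longest transcript for length were chosen after seeing the data.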

Additional observations from a re-analysis of the deposited data

Results flagged for a closer look

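Of 140 sets of values, being 35 genes in 4 groups, 3 had a single mouse far from the others of its group by Dixon's ratio, and chance alone gives about 1 in 20. Tpm1 in cKO males stood at 7292 CPM in mouse 4, against 6456 to 6748 CPM in the other 6. Ldb3, a PDZ and LIM-domain protein of the Z-disc, stood at 1370 CPM in Ctrl female 3, against 1063 to 1159 CPM in the other 5. Nebl stood at 131.6 CPM in Ctrl male 4, against 182.9 to 211.2 CPM in the other 5. None of these 3 genes was called in any comparison.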

How the results depend on the processing

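Over 22 values of single genes recomputed 809 times, 758 kept their direction and side of the threshold, 37 lost a call, 5 gained one and 9 changed sign. All 9 were of Ttn, which was never called: its male log2 fold change of 0.07 became -0.092 with the length and GC offset and -0.074 with the block and that offset, and its sex difference in Ctrl mice (-0.214 with that offset, with or without the block) became 0.004 with voom, 0.022 without the females numbered 2, and 0.005, 0.046, 0.01, 0.023 and 0.012 without Ctrl male 1, 2 or 3 or Ctrl female 2 or 6 (range over single omissions -0.044 to 0.046). The 3 calls in males became 1 with the length and GC offset (Tnni3), 1 with the block and that offset (Fhl2) and 0 without Ctrl males 3 and 6, but 4 with the DESeq2 Wald test (adding Synpo2l) and 4 with the compared groups alone or without the females numbered 2 (adding Myl2). DESeq2 raised the calls of the mean genotype effect to 5 (with Myl2 and Synpo2l) and those between the sexes in Ctrl mice to 2. The mean effect of Synpo2l, higher in cKO, was also called with the floor of 5 CPM (0.34, adjusted p = 0.036 by edgeR). That of Myl2 was called with voom (-0.15, adjusted p = 0.0484 by limma) and without the females numbered 2 (-0.14, adjusted p = 0.0295 by edgeR). Single omissions added Synpo2l in 6 of 26 and Myl2 and Tnnt2 in 1 each. Calls under these alternatives have no share of all genes given beside them. Isoform ratios past the threshold were 0 without Ctrl males 3 and 6, where the male Tnnt1 to Tnnt2 difference was 0.31 and fewer arrangements of mice were left. Leaving out 1 mouse gave 0 to 3 calls in males, 0 to 0 in females and for the difference between the sexes, 3 to 5 for the mean effect, 0 to 1 between the sexes in Ctrl mice, 3 to 5 in cKO mice, and 1 to 2 isoform ratios, the second being Tnnt1 to Tnnt2 between the Ctrl sexes.

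Spearman's correlation with length over the 35 genes moved in females from 0.33 to 0.53 with the longest transcript. Same-numbered mice did not all deviate together (mean correlation 0.118 for Ctrl and cKO females with a range of -0.0969 to 0.404 and 3 of 6 pairs over 0.1, against 6 of 36 pairs of unlike number, and -0.0259, 0.03 and -0.00679 for the other pairs of groups), so the numbers were not taken to pair the mice. A block for the replicate number left 2 calls in males (Fhl2 and Tnni3), Myl3 had an edgeR adjusted p of 0.0518, and 0 isoform ratios passed, where the smallest p that 6 pairs allow is 0.0312 and the smallest adjusted p was 0.187. The block alone changed no other count of calls. Depth limits Myl7 and Tnni1.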
